A study of Caenorhabditis elegans with 4 samples.

Results

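The 260 regions described here are the wide peaks of the combined list of ZTF-11-GFP binding regions in Caenorhabditis elegans larvae. They were chosen by the width of the deposited peak alone, over 320 bp, out of 520 combined peaks. The other 260 peaks, of 320 bp or less, are called narrow here. Width is itself a readout of the peak calls, so widths are given as a description and were not tested.

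Chromatin immunoprecipitation (ChIP) followed by sequencing was carried out on hermaphrodites at the L3 larval stage, grown at 20 °C and crosslinked with 2% formaldehyde. There were 4 samples, namely 2 ChIP replicates taken with a goat antibody against GFP and 2 inputs of total genomic DNA. All of them came from strain OP236, which carries unc119(ed3) and the integrated transgene wgIs236. The genotype field gives the transgene as elk-2::TY1 EGFP FLAG together with unc119. The strain was made by bombardment of an unc-119(ed3) strain with a tagged transgene and was outcrossed 3 times. Treatment, stage and genotype are therefore the same in every sample, and no untagged strain or other condition is compared. The genotype field names elk-2, while the titles and the strain's description name ztf-11, and which protein carried the tag was not tested. The labels describe the fusion as expressed where and when ztf-11 normally is. The description field puts ChIP and input the other way round from the titles and source names; the titles were followed, and each replicate list is attached to a sample titled ChIP. The labels do not say whether the replicates came from separate cultures, and whole larvae mix all tissues.

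ZTF-11 is the MYT1-type zinc finger protein of C. elegans, a family known for repressing non-neuronal genes as neurons form. elk-2 encodes a protein of the ETS family of transcription factors. In ChIP-seq, a peak is a stretch where immunoprecipitated fragments pile up. A single contact with DNA gives a stretch about as long as the sheared fragments, and contacts that lie close together can be reported as 1 longer stretch or as several. The C. elegans genome has 5 autosomes, on which genes in the central part tend to be more conserved and the arms recombine more, and an X chromosome that is subject to dosage compensation in hermaphrodites.

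The wide peaks reached up to 10941 bp, with a median of 547.5 bp and quartiles of 402.8 and 783.5 bp. They covered 191.0 kb, which is 80.5% of all bases in the combined list. The narrow peaks had a median of 196 bp and covered 46.2 kb, and 65 of them were under 100 bp. Most wide peaks were of moderate size: 33 of the 260 reached 1000 bp and 4 passed 3000 bp. Coordinates are on the WormBase WS180 build. At the limit itself the classes ran into each other. The 3 peaks just inside were V:1855090-1855412 (323 bp, q = 4.55e-06), V:15873793-15874113 (q = 1.39e-08) and II:11917263-11917583 (q = 6.41e-08), the last 2 being 1 bp over it. Those just outside were II:11042847-11043166 (320 bp, q = 2.93e-06), II:12494467-12494782 (316 bp, q = 1.65e-07) and V:332511-332826 (316 bp, q = 2.45e-07). The q values on the 2 sides of the limit overlapped.

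Wide peaks had smaller q values, and most of the narrow range lay within the wide one. The −log10 q ran from 4.50 to 69.1 in wide peaks and from 4.48 to 13.1 in narrow peaks. The q value is the caller's own, comes from the same calls as the width, and depends on width and read depth, so this is a description. The median −log10 q was 6.59 in wide peaks, with quartiles of 5.34 and 9.29, and 5.19 in narrow peaks, with quartiles of 4.76 and 5.93. All of the 25 peaks with the smallest q were wide, and 112 of the first 130 were. In the other direction, 57 wide peaks had a larger q than the median narrow peak, and 33 narrow peaks had a smaller q than the median wide peak. The strongest narrow peak, IV:654784-655072 (289 bp), ranked 38 in the list with q = 8.59e-14. Over the 260 wide peaks the rank correlation of width with −log10 q was 0.32 (Spearman's rho), and over the narrow peaks it was 0.36. These points share their libraries and their caller.

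**Figure D1:**
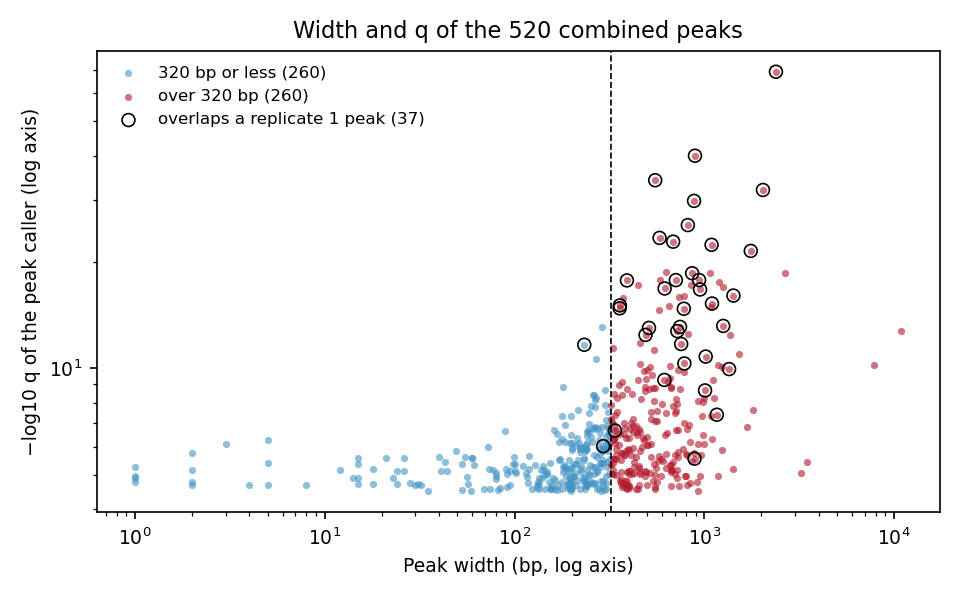
Each point is 1 of the 520 combined peaks, with its width in bp (x, log axis) and the −log10 of the caller's q (y, log axis). Red points are the 260 wide peaks, blue points the 260 narrow peaks, the dashed line is the limit of 320 bp, and black circles mark the 37 peaks that overlap a ChIP replicate 1 peak. Of the circles, 35 lie on the wide side, mostly among the small q values, while the 4 peaks over 3000 bp carry none.

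The 15 widest peaks, from 1351 bp upward, held 23.5% of the wide bases. Of these 15, 4 were on I, 5 on III and 1 on X, which held 16.9, 18.5 and 21.2% of all wide peaks. The 3 widest all lay on I between 9882671 and 9919736, so the count on I is mostly 1 stretch. Whether the 15 were spread differently from all wide peaks was not tested. Width and q did not rank them alike. The 3 widest were I:9905119-9916059 (10941 bp, q = 1.68e-13), I:9882671-9890522 (7852 bp, q = 6.26e-11) and I:9916260-9919736 (3477 bp, q = 3.63e-06), followed by III:13778044-13781277 (3234 bp, q = 8.85e-06). None of these 4 overlapped a replicate 1 peak, and the last of them ranked 372 by q. Next came I:1834806-1837468 (2663 bp, q = 2.19e-19), and then the region with the smallest q of the list, X:16929446-16931831 (2386 bp, q = 8.21e-70). After it stood IV:14032490-14034527 (2038 bp, q = 1.07e-32), III:158962-160776 (1815 bp, q = 2.49e-08) and III:834446-836203 (1758 bp, q = 3.22e-22). The X, IV and second III regions of these overlapped a replicate 1 peak, and the 2 others did not. The remaining 6 were III:1924502-1926180 (1679 bp, q = 1.58e-07), II:6346460-6347974 (1515 bp, q = 9.82e-12), III:4193617-4195041 (1425 bp, q = 6.26e-06), V:9343135-9344558 (1424 bp, q = 8.59e-17), V:9730835-9732196 (1362 bp, q = 3.76e-13) and IV:1710301-1711651 (1351 bp, q = 1.12e-10). Of the 15, 5 overlapped a replicate 1 peak and 15 a replicate 2 peak.

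Recovery in each replicate list was compared between the classes. The combined list is by its name made from both replicates, and how it was made is not stated. Neither replicate list can therefore be taken as independent of the combined widths and q values. Replicate 1 had 40 peaks and replicate 2 had 538, and no read counts are given, so depth is unknown and a region missing from replicate 1 cannot be called unbound there. Shares are given with exact (Clopper-Pearson) 95% binomial intervals and differences with Newcombe 95% intervals, with no p-values. The intervals cover counting error only and treat peaks as independent. Across the combined list 7.12% of peaks met a replicate 1 peak by 1 bp or more. Among wide peaks it was 35 of 260 (13.5%, interval 9.56 to 18.2%), and among narrow peaks 2 of 260 (0.769%, 0.0933 to 2.75%), a difference of 12.7 percentage points (8.56 to 17.4). A longer peak overlaps more easily, so the comparison was repeated on centres alone. With a replicate 1 centre required within 300 bp of the combined centre, 33 wide peaks and 1 narrow peak were recovered, a difference of 12.3 points (8.38 to 16.9). Replicate 1 peaks were themselves mostly wide, with 36 of the 40 over 320 bp, and 4 were narrow. Without the 4 combined peaks over 3000 bp the difference by overlap was 12.9 points (8.72 to 17.7).

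The difference in replicate 1 recovery was seen among the peaks of smallest q. The list was divided by q into 4 groups of 130 peaks. In the group with the smallest q, 33 of 112 wide peaks were recovered (29.5%, 21.2 to 38.8%) and 1 of 18 narrow peaks (5.56%, 0.141 to 27.3%), a difference of 23.9 points (2.31 to 34.0). In the next group the counts were 1 of 65 in both classes. In the third they were 1 of 50 wide and 0 of 80 narrow peaks, and in the last 0 of 33 and 0 of 97, which allow shares of up to 10.6% and 3.73% by the exact interval. Even among strong wide peaks recovery was partial: 10 of the first 10 were recovered, 17 of the 25 in the first 25, and 27 of the 48 in the first 50. The first 25 held no narrow peak, and the first 50 held 2, of which 1 was recovered. Within the first group the classes thus differed in q, and the 23.9 points are not a difference at equal q. Recovery was also higher among the wider members. It was 4 of 65 (6.15%) up to 402 bp, 2 of 65 (3.08%) from 403 to 547 bp, 10 of 65 (15.4%) from 548 to 783 bp and 19 of 65 (29.2%, 18.6 to 41.8%) from 785 bp upward. The median −log10 q rose over the same 4 groups, from 5.84 to 6.4, 7.09 and 8.22. The separate parts of width and q in this recovery cannot be told apart.

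The wide peaks found in replicate 1 were compared in extent between the lists. At the 35 of them the median width was 819 bp in the combined list and 719 bp in replicate 1, the combined peak was the wider in 22 and the narrower in 13, and the median shift of the centre was 41.5 bp. The widths were within 10% of each other at 14 of the 35, and the ratio of combined to replicate 1 width ran from 0.443 to 3.48. For 32 of the 35 the replicate 1 peak was also over 320 bp. The IV region first among replicate 1 peaks by q was 2038 bp in the combined list and 1918 bp in replicate 1. The III:834446-836203 region was 1758 bp against 1843 bp, and V:9343135-9344558 was 1424 bp against 1381 bp. These 3 regions differed by little in extent, whereas others did not keep theirs. X:4208608-4209699 was 1092 bp wide, and its replicate 1 peak was 314 bp, the largest ratio at 3.48. V:725539-726426 was 888 bp wide and its replicate 1 peak 2006 bp, the smallest ratio at 0.443. The X:16929446-16931831 region was the only wide peak met by more than 1 replicate 1 peak, the longer of which was 1078 bp.

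The other regions among the 10 widest that replicate 1 recovered were IV:1710301-1711651, IV:13239511-13240768 (1258 bp, against 1264 bp in replicate 1), IV:17280478-17281641 (1164 bp, against 1438 bp), I:9380936-9382033 (1098 bp, against 1165 bp) and II:11619761-11620777 (1017 bp, against 720 bp). Chromosome X held 15 of the 35 recovered wide peaks. Recovery was 15 of 55 wide peaks on X (27.3%, 16.1 to 41.0%) and 20 of 205 on the autosomes (9.76%, 6.06 to 14.7%), a difference of 17.5 points (6.42 to 30.9). The wide peaks on X were also strong, holding 13 of the first 25 places by q. The 2 narrow peaks found in replicate 1 were II:11759279-11759511 (233 bp, q = 2.19e-12, against 247 bp in replicate 1) and V:4434991-4435283 (293 bp, q = 9.59e-07, against 815 bp).

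Replicate 2 held nearly all peaks of either class. Across the combined list 97.9% overlapped a replicate 2 peak. It was 257 of 260 wide peaks (98.8%, 96.7 to 99.8%) and 252 of 260 narrow peaks (96.9%, 94.0 to 98.7%), and the interval of the difference included 0 (1.92 points, −0.731 to 4.90, and 1.91 points, −0.777 to 4.88, without the peaks over 3000 bp). The combined list repeats much of the replicate 2 list, so this recovery is no independent support. Both boundaries were identical in the 2 lists at 187 of the 257 wide peaks (72.8%) and 192 of the 252 narrow ones (76.2%), a difference of −3.43 points (−10.9 to 4.15). The q value was also identical at 207 of the 257 wide peaks (80.5%). With so many calls repeated, agreement in class is largely built in and is no separate support. Of the 257 wide peaks, 253 were also over 320 bp in replicate 2. The 4 exceptions were IV:1524191-1524590, V:10237912-10238242, V:10858134-10858799 and X:16414505-16414932, and V:10858134-10858799 shortened most, from 666 to 211 bp. The 3 wide peaks missing from replicate 2 were II:10547783-10548228 (446 bp, q = 2.87e-05), V:6222519-6223692 (1174 bp, q = 1.12e-05) and X:15606828-15607636 (809 bp, q = 2.12e-05), all among the weakest 130 peaks by q.

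**Figure D2:**
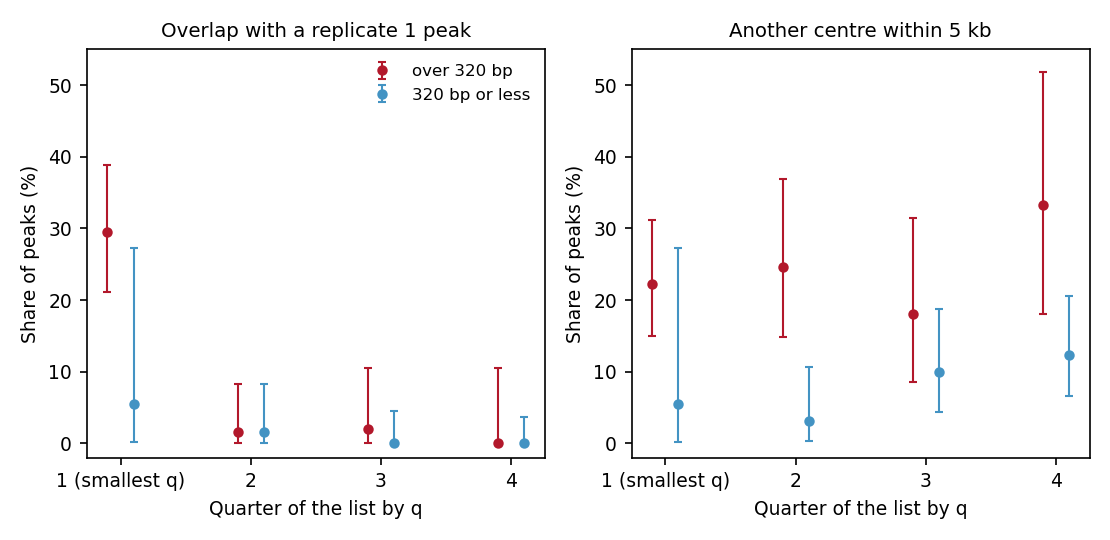
The combined list was divided by q into 4 groups of 130 peaks, from the smallest (1) to the largest (4), and the share of wide (red) and narrow (blue) peaks is plotted in percent with exact 95% binomial intervals. On the left, overlap with a replicate 1 peak reaches 29.5% of wide peaks in the first group and is at most 2.00% in the other groups. On the right, the share with another peak centre within 5 kb is higher in wide than in narrow peaks in all 4 groups.

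Wide peaks had close neighbours more often than narrow peaks. Spacing was taken between centres, since the gap between edges shrinks as peaks widen. Both peaks of a close pair count as having a close neighbour. The peaks are therefore not independent in this measure, and its intervals are likely too narrow. Across the combined list 16.2% of peaks had another combined centre within 5 kb. The count was 61 of 260 wide peaks (23.5%, 18.4 to 29.1%) and 23 of 260 narrow peaks (8.85%, 5.69 to 13.0%), a difference of 14.6 points (8.36 to 20.8). Without the 4 peaks over 3000 bp it was 15 points (8.68 to 21.3). Distances were shorter in wide peaks at each quartile. The first quartile of the distance to the nearest centre was 7.49 kb in wide and 22.1 kb in narrow peaks, and the third quartile was 125.5 and 142.2 kb. The medians were 54.9 kb (order-statistic 95% interval 42.3 to 64.3) and 75.5 kb (60.0 to 87.4), whose intervals overlap.

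**Figure D3:**
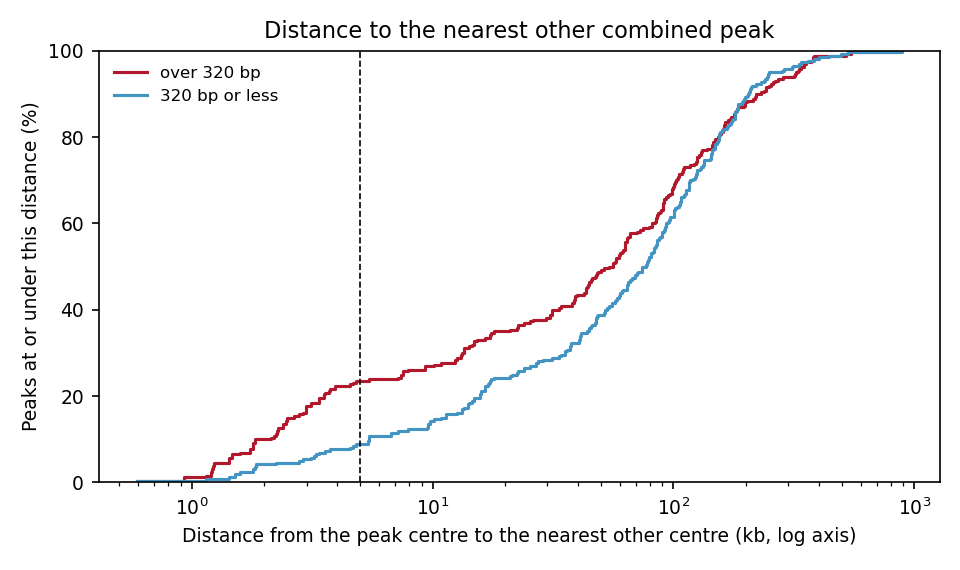
The curves give the percentage of wide (red) and narrow (blue) peaks whose nearest other combined peak lies at or under the distance on the x axis, measured between centres in kb on a log axis. The dashed line marks 5 kb, where the curves stand at 23.5% and 8.85%. The third quartiles are 125.5 kb in wide and 142.2 kb in narrow peaks.

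The difference in close neighbours was present among peaks of small and of large q. In the stronger 260 peaks by q, 41 of 177 wide peaks (23.2%) and 3 of 83 narrow peaks (3.61%) had a centre within 5 kb, a difference of 19.5 points (11 to 26.7). In the weaker 260 the counts were 20 of 83 (24.1%) and 20 of 177 (11.3%), a difference of 12.8 points (3.15 to 23.7). Over the 4 groups of q the wide share was 22.3, 24.6, 18 and 33.3%, and the narrow share 5.56, 3.08, 10.0 and 12.4%. The interval of the difference excluded 0 in the second group (9.95 to 33.4 points) and the fourth (5.19 to 38.8), and included it in the first (−4.52 to 26.5) and the third (−3.84 to 21.7). The share was also larger in the widest members, at 24 of 65 (36.9%, 25.3 to 49.8%) from 785 bp upward against 10 of 65 (15.4%, 7.63 to 26.5%) up to 402 bp.

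Close neighbours were themselves mostly wide. The nearest peak was wide for 44 of the 61 wide peaks with a neighbour within 5 kb (72.1%, 59.2 to 82.9%), and for 104 of the 199 others (52.3%, 45.1 to 59.4%). It was also wide for 19 of the 23 narrow peaks with such a neighbour (82.6%, 61.2 to 95%). A neighbour within 5 kb has a close neighbour in turn, so it is itself among the 84 close peaks, of which 61 were wide. Mostly wide neighbours follow from that count, and the contrast with 52.3% is not a separate result. Whether wide peaks lay next to wide peaks more often than that count gives was not tested. Chained together, the 84 close peaks formed 38 runs, and 36 of these runs held at least 1 wide peak. There were 18 runs of wide peaks only, 18 mixed runs and 2 of narrow peaks only. With 61 of the 84 peaks wide, most runs would hold a wide peak from that composition alone. Whether more did so was not tested, and the counts are a description. In 10 runs 2 peaks were separated by at most 1 kb between edges, which may be either adjacent regions or 1 region reported in pieces, and these cannot be told apart from the lists. With such peaks joined into single regions, the difference in close neighbours was 10.6 points (4.69 to 16.5).

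Of the 38 runs, 7 held 3 or more peaks. None of these 7 was on X, but X held only 4 of all 38 runs, so this is a description. The longest chain had 4 peaks over 7330 bp, V:1151333-1158662, of which 3 were wide (366, 401 and 1069 bp) and 1 was 30 bp, with q from 2.74e-19 to 2.11e-05. Runs of 3 wide peaks each stood at V:6222519-6228140 (1174, 1109 and 833 bp), I:2064915-2070264 (389, 387 and 987 bp) and III:3865584-3869745 (923, 849 and 521 bp). In these 3 runs 0 peaks were recovered in replicate 1, where 13.5% of all wide peaks were recovered. Of all 38 runs, 7 held a recovered peak, so the absence from 3 runs says little. The first peak of the V run, V:6222519-6223692, was also missing from replicate 2. By centre distance, the 5 closest pairs of wide peaks had centres 933 to 1237 bp apart and edges 242 to 351 bp apart. By edges, I:9905119-9916059 and I:9916260-9919736, the widest region and the third widest, were closer, with 200 bp between them, although their centres were 7.41 kb apart. The 5 pairs closest by centre were I:2068645-2069031 with I:2069278-2070264, I:9379943-9380612 with I:9380936-9382033, III:13462963-13464093 with III:13464367-13465111, III:4193617-4195041 with III:4195284-4195829, and III:3865584-3866506 with III:3866858-3867706. Within a pair the q values could lie far apart: the last had q = 3.19e-05 at its first peak and q = 6.22e-18 at its second.

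Wide peaks on X had a close neighbour less often than those on the autosomes. Of the 55 on X, 6 had another centre within 5 kb (10.9%, 4.11 to 22.2%), against 55 of 205 on the autosomes (26.8%, 20.9 to 33.4%), a difference of −15.9 points (−24.6 to −3.65). By autosome the share was 31.8% (I), 20.0% (II), 25% (III), 28.3% (IV) and 28.1% (V). Each of these was above the share on X. The median distance to the nearest centre was 59.6 kb on X (43.4 to 100.3) and 50.1 kb on the autosomes (31.2 to 65.8), with overlapping intervals. The first quartile was 28.1 kb on X and 3.94 kb on the autosomes. This comparison was chosen after its values were seen. Among narrow peaks it was 2 of 36 on X and 21 of 224 on the autosomes, a difference of −3.82 points (−9.88 to 9.16).

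Chromosome shares differed between the classes on II and, less clearly, on X. Chromosome X held 17.5% of all combined peaks, 55 of the 260 wide peaks (21.2%, 16.4 to 26.6%) and 36 of the 260 narrow peaks (13.8%, 9.89 to 18.7%), a difference of 7.31 points (0.763 to 13.8). Chromosome II went the other way, with 35 wide peaks (13.5%, 9.56 to 18.2%) and 59 narrow peaks (22.7%, 17.7 to 28.3%), a difference of −9.23 points (−15.8 to −2.61). The differences were 0 on I, −0.385 on III, 4.23 on IV and −1.92 points on V, each with an interval that includes 0. With intervals widened to hold jointly over the 6 chromosomes (Bonferroni), X ran from −1.53 to 16.1 points and II from −18.1 to −0.291. On this stricter reading the difference on X is not shown, and the interval on II ends close to 0. The difference on II was not repeated under the alternative settings used for X.

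The X difference was smaller without the peaks that replicate 1 recovered, but stayed within the interval given above. It was then 3.82 points (−2.69 to 10.5), with 40 of 225 wide and 36 of 258 narrow peaks on X. This removal took out 15 wide peaks on X and left the count of narrow peaks there at 36, so a fall was built in. The X difference was 7.64 points (1.05 to 14.2) without the peaks over 3000 bp. It was 3.8 (−3.13 to 10.1) with the width limit at 250 bp and 3.51 (−3.45 to 11.4) with the limit at 500 bp. None of the 4 peaks over 3000 bp was on X, which held 8 of the 65 members from 785 bp upward (12.3%, 5.47 to 22.8%) and 19 of 65 between 548 and 783 bp (29.2%, 18.6 to 41.8%). Of the 33 peaks of 1000 bp or more, chromosomes III and V had 7 each, I and IV had 6 each, X had 4 and II had 3. The median width of the wide peaks was 538 bp on X, 470 bp on II and between 529 and 668 bp on the other chromosomes, so the wide peaks of X were of ordinary width. Per Mb between the first and last combined peak, wide peaks numbered 3.51 on III, 3.22 on X, 2.94 on I, 2.71 on IV, 2.41 on II and 1.65 on V. Narrow peaks numbered 3.58, 2.11, 2.94, 2.06, 4.06 and 1.91 in the same order. Chromosome III was thus dense and V sparse in both classes.

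**Figure D4:**
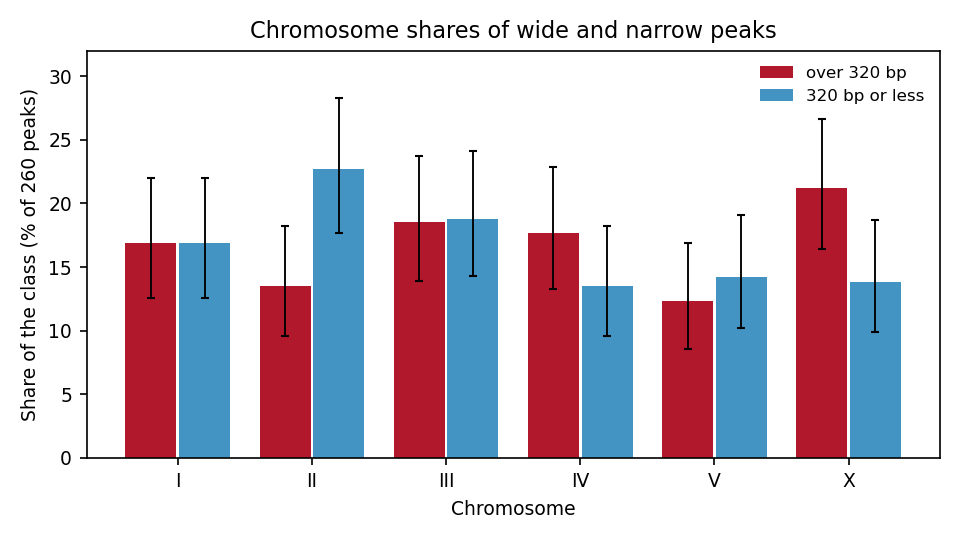
Bars give the share of the 260 wide (red) and the 260 narrow (blue) peaks on each chromosome in percent, with exact 95% binomial intervals. Wide peaks have the higher share on X (21.2% against 13.8%) and the lower one on II (13.5% against 22.7%), and the classes are level on I.

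Position along the chromosomes was not shown to differ between the classes. The central part was taken from 25 to 75% of the span between the first and last combined peak, because chromosome lengths of this build were not used here. On the autosomes 103 of 205 wide peaks were central (50.2%, 43.2 to 57.3%), and 119 of 224 narrow peaks (53.1%, 46.4 to 59.8%), a difference of −2.88 points (−12.2 to 6.53). Without peaks over 3000 bp it was −3.37 points (−12.8 to 6.09). On X the counts were 26 of 55 (47.3%) and 19 of 36 (52.8%), a difference of −5.51 points (−25.3 to 14.9). The interval on X is broad and leaves room for differences of either sign. Single chromosomes ranged from 39.1% central on IV (18 of 46 wide peaks) to 62.5% on V (20 of 32). The narrow shares there were 45.7% and 45.9%, with differences of −6.58 (−27.1 to 14.4) and 16.6 points (−6.75 to 37.4). The difference was also positive on I (6.82 points) and was negative on II, III and X. Its interval included 0 on every chromosome. The outer 10% at either end of the autosomal spans held 48 of 205 wide peaks (23.4%) and 44 of 224 narrow peaks (19.6%), a difference of 3.77 points (−3.99 to 11.6).

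**Figure D5:**
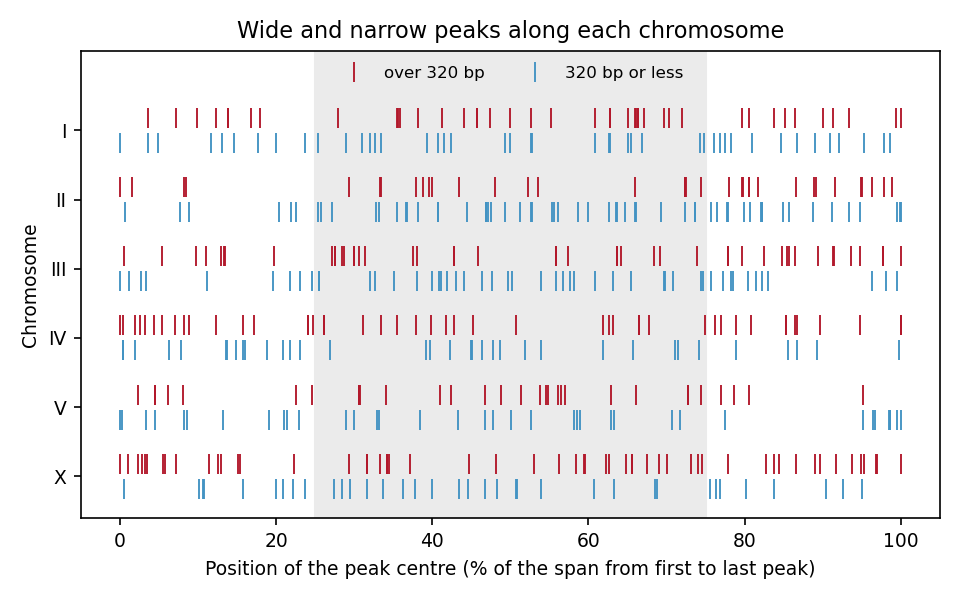
Each tick is the centre of 1 combined peak, placed in percent of the span from the first to the last combined peak of its chromosome. Red ticks are wide and blue ticks narrow peaks, and the grey band is the central part from 25 to 75%. Both classes reach from end to end of each span, with 50.2% of wide and 53.1% of narrow autosomal peaks in the band.

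On each chromosome the longest stretch without a wide peak held at least 1 narrow peak. On II no wide peak lay from 1247237 to 4299291, a stretch of 3.05 Mb that held 7 narrow peaks. The longest such stretch on V, from 15874114 to 18719410 (2.85 Mb), held 1 narrow peak. On III the stretch from 6374229 to 7729210 (1.35 Mb) held 5 narrow peaks, and on X that from 6742634 to 8036129 (1.29 Mb) held 4. On I (1.48 Mb) and IV (1.89 Mb) they held 3 and 2.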

How the data were processed

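Per the file headers, the authors deposited PeakSeq binding sites on WormBase WS180, 1 list for each ChIP replicate and 1 combined list. Each peak has a position and a q value (an adjusted p-value as deposited by the authors), given in 2 fields that were equal for all peaks. For the aligner, the control, the caller's limits and the making of the combined list, nothing is stated in those headers or labels (not given in the sources used here). No read counts or heights are in the lists, so depth is unknown. Samples were grouped by their titles. Peaks of the inputs were not analysed here.

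Width was end minus start plus 1. From the deposited q, −log10 q was computed. The members, the measures compared and the limit of 320 bp were chosen with earlier results of these data known. Shares of peaks are not replicated over samples, so no p-values are given. Regions were named by rule: the 15 widest, 3 on each side of the limit, the 10 widest in replicate 1, the wide peaks absent from replicate 2 and the 5 closest pairs. Other named regions, the runs of close peaks, the comparison of X with the autosomes and the division of the members by width were chosen after values were seen. No WS180 annotation or sequence was used here, so no gene or sequence is given. The computation was checked on lists with known answers. Computation used SciPy 1.17.1, pandas 2.3.3 and NumPy 2.4.6 under Python 3.11.15, and figures matplotlib 3.10.9.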

Additional observations from a re-analysis of the deposited data

How the results depend on the processing

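Of 66 alternative values, 58 stayed within the 95% interval of the reported one and 8 did not. The sign changed in 3: the X difference and the central autosomal difference without replicate 2, and the central difference with a width limit of 500 bp (1.04 points, −9.41 to 11.4), which stayed within the reported interval. The width limits of 250 and 500 bp, the division by q and the removal of peaks recovered in replicate 1 were chosen after seeing the data. The alternatives were mostly drawn from the same peaks, so they are not separate support for any difference. The difference in close neighbours kept its sign in 14 of 14 alternatives and its interval, likely too narrow, excluded 0 in 13. It was 5.77 points with a limit of 2 kb. The difference in replicate 1 recovery kept its sign in 11 of 11 and its interval excluded 0 in 10. It was 18.1 points with a width limit of 500 bp and 1.20 points in the weaker 260 peaks by q, where 1 peak was recovered. The difference on X kept its sign in 10 of 11, but its interval excluded 0 in 4. It was 6.36 points (−1.71 to 14.4) between the widest and the narrowest 173 peaks, 9.35 (−1.17 to 18.1) in the stronger and 3.95 (−5.05 to 14.5) in the weaker 260 peaks.

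Repeating the comparison within the replicate 2 list (without replicate 1) and within the replicate 1 list (without replicate 2) gave 7.93 and −11.1 points for X, −4.03 and 36.4 points for the central autosomal share, and 13.9 and 5.56 points for close neighbours. The median distances were 56.0 and 723.5 kb for wide and 65.9 and 1701 kb for narrow peaks. The replicate 1 list holds 4 narrow peaks, so its values say little. No paired analysis was possible because both classes of peaks come from 1 combined list and peaks of the inputs were not analysed here.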
